A study of Mus musculus with 441 samples.

Results

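Among the gene windows of the chromatin immunoprecipitation (ChIP-seq) table, 886 of 23167 carried at least 50 reads of H3K27me3 and fewer than 100 reads of H3K4me3 in mouse embryonic stem cells (mESCs) grown in serum+LIF. These 886 windows of 1000 bases, each named for a gene, are described here as H3K27me3-only windows. The name is short for H3K27me3 with little H3K4me3, not for H3K4me3 being absent. They were picked on those raw counts, so the counts themselves are given as a description. Another 2908 windows had at least 50 H3K27me3 reads together with at least 100 H3K4me3 reads, the combination known as bivalent, and 9045 windows were below both limits.

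H3K27me3, trimethylation of lysine 27 of histone H3, is laid down by Polycomb repressive complex 2 and marks genes that are kept silent. H3K4me3 is laid down by the Set1 and Mll enzymes at promoters, above all at promoters rich in CpG dinucleotides. In mESCs many genes of later development carry both marks on CpG-rich promoters, which makes the windows with H3K27me3 and little H3K4me3 the less familiar class.

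The mESCs were v6.5 cells in serum+LIF, v6.5 cells in 2i+LIF, and a Dgcr8 knockout line in serum+LIF. Serum (FBS) and LIF keep mESCs dividing, 2i is a pair of kinase inhibitors against the ERK pathway and GSK3, and Dgcr8 is the partner of Drosha in microRNA processing. Neural precursor cells (NPCs) came from in vitro differentiation of the same v6.5 cells, with selection in ITSFn medium and expansion in N2 with bFGF on laminin. Each culture had 1 ChIP library per mark, for H3K27me3, H3K4me3, H3K27ac, H3K36me3, H3K9me3, RNA polymerase II and whole cell extract (input). RNA was read in bulk (2 serum, 1 2i and 2 knockout libraries) and in single cells (serum plates of 90 and 93 cells, a 2i plate of 94, a knockout plate of 84 and an NPC plate of 54). The labels do not say that replicates came from separate cultures, and the p-values then rest on the spread between libraries alone, which may be technical. The knockout was 1 line, so the lost Dgcr8 cannot be told apart from anything else in which that line differs from v6.5, nor can the inhibitors be told apart from the serum in the 2i comparison.

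The windows summed to 815042, 516249 and 577359 H3K27me3 reads in serum, 2i and knockout, and to 15315269, 9687863 and 5686479 H3K4me3 reads. In bulk RNA Dgcr8 was at 10.6 and 10.3 TPM, a transcript level scaled to the same sum in every library, for serum, 4.66 for 2i, and 4.03 and 2.20 for the knockout libraries. The labels do not name the deleted part of the gene, and this whole-gene level does not check them. All 6 pluripotency markers were at TPM 1 or more on every plate, with a summed level of 8057 to 22935 TPM on the mESC plates and 627 in NPC. Of 10 neural precursor markers, 6 were at TPM 1 or more in NPC (summed 1387 TPM), and Fabp7 was at 0 or not listed there. Fibroblast markers (5 of 6, summed 144.5 TPM) and primitive endoderm markers (4 of 6, summed 1460 TPM) were also at TPM 1 or more in NPC, and their part in the NPC values below was not tested.

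The promoters of the 5 windows with most H3K27me3 that had an entry in the RefSeq promoter table are shown beside the promoter with the fewest CpGs, because these ends of the range differ in base composition. Each sequence runs 5′ to 3′ on the gene's strand, from 250 bases before the start to 50 after it, in GRCm38.p6 coordinates from RefSeq. CpG dinucleotides are in capitals. Hoxa11as is the antisense RNA of Hoxa11, Wnt1 a signalling ligand of the midbrain, Dbx1 and Nkx2-2 homeobox factors of the ventral neural tube, Pax6os1 an RNA opposite Pax6, and Krtap4-9 a keratin-associated protein of hair.
Hoxa11as, chr6:52244993-52245292, plus strand: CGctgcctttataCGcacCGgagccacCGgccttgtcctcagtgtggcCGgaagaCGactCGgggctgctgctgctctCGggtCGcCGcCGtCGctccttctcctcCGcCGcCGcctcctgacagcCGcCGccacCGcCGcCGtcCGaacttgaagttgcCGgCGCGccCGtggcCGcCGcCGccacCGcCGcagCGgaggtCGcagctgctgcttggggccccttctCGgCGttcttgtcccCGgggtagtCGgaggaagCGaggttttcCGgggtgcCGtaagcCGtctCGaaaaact
Wnt1, chr15:98789607-98789906, plus strand: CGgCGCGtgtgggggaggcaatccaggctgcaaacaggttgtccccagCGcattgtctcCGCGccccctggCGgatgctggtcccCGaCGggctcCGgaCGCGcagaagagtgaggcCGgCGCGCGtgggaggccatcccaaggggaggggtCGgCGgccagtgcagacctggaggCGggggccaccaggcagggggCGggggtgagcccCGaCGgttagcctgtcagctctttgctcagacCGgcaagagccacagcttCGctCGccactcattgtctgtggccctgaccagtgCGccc
Dbx1, chr7:49636786-49637085, minus strand: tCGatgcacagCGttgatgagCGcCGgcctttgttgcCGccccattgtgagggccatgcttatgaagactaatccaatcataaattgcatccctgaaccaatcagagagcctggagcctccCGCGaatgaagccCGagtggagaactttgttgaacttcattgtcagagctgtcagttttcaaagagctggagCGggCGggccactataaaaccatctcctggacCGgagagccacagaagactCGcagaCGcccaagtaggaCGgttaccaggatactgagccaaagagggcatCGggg
Pax6os1, chr2:105670281-105670580, minus strand: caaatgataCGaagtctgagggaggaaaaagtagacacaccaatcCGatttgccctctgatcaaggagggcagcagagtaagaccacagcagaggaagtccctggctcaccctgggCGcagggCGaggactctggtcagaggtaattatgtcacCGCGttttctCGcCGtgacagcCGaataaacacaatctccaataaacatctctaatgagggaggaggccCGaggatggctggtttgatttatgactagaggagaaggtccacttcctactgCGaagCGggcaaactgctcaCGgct
Nkx2-2, chr2:147186353-147186652, minus strand: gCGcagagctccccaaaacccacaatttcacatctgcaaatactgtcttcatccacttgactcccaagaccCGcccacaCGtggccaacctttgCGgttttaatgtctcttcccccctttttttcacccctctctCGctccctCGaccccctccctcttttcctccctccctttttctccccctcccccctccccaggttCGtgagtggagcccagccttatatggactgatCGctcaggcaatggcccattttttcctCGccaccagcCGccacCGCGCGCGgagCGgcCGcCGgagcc
Krtap4-9, chr11:99784950-99785249, plus strand: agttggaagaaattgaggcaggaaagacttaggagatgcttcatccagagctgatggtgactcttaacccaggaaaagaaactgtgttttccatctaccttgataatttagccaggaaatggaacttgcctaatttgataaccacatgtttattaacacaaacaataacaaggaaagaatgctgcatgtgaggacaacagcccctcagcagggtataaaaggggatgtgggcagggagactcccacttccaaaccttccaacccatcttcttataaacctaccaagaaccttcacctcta

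The Hoxa11as sequence held 41 CpGs, an observed over expected ratio of 1.11 (the number of CpGs against that from its C and G content). Wnt1 held 26 (0.699), Nkx2-2 17 (0.791), Dbx1 15 (0.687) and Pax6os1 13 (0.637). Krtap4-9 held 0 CpGs, with 66 H3K27me3 reads and 17 H3K4me3 reads in its window.

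MicroRNA hairpins of the Hox clusters, 5 in number, were among the 886 windows. Their mature 5p arms, from RefSeq, form pairs with the same seed (bases 2 to 8, in capitals).
miR-196b-5p: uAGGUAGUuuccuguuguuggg
miR-196a-5p: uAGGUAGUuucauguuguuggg
miR-10a-5p: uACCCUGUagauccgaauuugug
miR-10b-5p: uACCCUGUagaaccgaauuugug

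Mir196b, Mir196a-1 and Mir196a-2 share the seed AGGUAGU, and Mir10a and Mir10b the seed ACCCUGU. Levels are given as CPM, the reads of a window scaled to the same total of window reads in every library. H3K27me3 at Mir196b was at 301 (serum), 154.96 (2i) and 116.05 (knockout) CPM, and at Mir196a-2 it was at 293 (serum), 75.5 (2i) and 110.8 (knockout). Mir10a stood at 184.04 (serum), 89.1 (2i) and 93.5 (knockout), Mir10b at 169.3 (serum), 93 (2i) and 60.6 (knockout) and Mir196a-1 at 82.2 (serum), 17.4 (2i) and 53.7 (knockout). All 5 were highest in serum, the culture whose H3K27me3 count chose them. Their windows lay 1102 to 6166 bases from the nearest Hox window, which was Hoxb9 for Mir196a-1, Hoxb4 for Mir10a, Hoxc9 for Mir196a-2, Hoxd4 for Mir10b and Hoxa9 for Mir196b. Of the 886 windows, 17 belonged to microRNAs with a mature sequence in the table. Outside the Hox clusters, Mir208a and Mir208b of the heart myosin genes also shared a 3p seed (UAAGACG), with 72 and 71 H3K27me3 reads in serum.

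**Figure D1:**
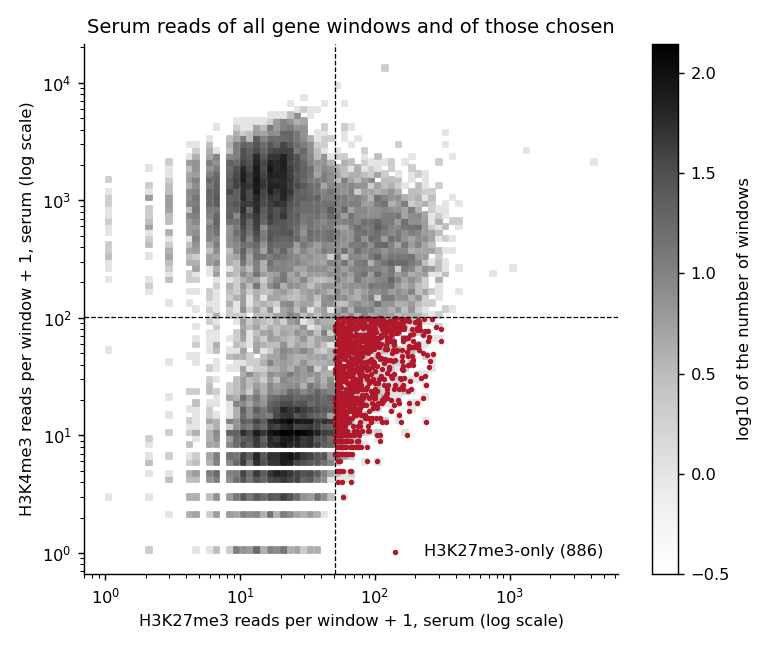
Gene windows by serum H3K27me3 reads plus 1 (horizontal, log scale) and serum H3K4me3 reads plus 1 (vertical, log scale), with grey squares for the log10 number of windows and red points for the 886 chosen windows. Dashed lines mark 50 and 100 reads, and the chosen windows fill the lower right corner and run on without a gap into the 2908 windows with both marks.

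The median H3K27me3-only window had 70 H3K27me3 reads (quartiles 57 and 102.75) and 34 H3K4me3 reads in serum, against 20 and 273 over all windows. Most lay near the limit. There were 274 windows with 50 to 59 H3K27me3 reads, 230 with at least 100 and 35 with at least 200. H3K4me3 was below 20 reads in 290 windows and between 90 and 99 in 67. The 9045 windows below both limits had a median of 9 H3K4me3 reads, and most H3K27me3-only windows held more than that. Just inside the H3K27me3 limit, at 50 reads, were Apol11a, Aqp6 and Ccdc121, and just outside it, at 49, were 1100001G20Rik, 1700020L24Rik and 1700030M09Rik. Just inside the H3K4me3 limit, at 99 reads, were Bhmt2, Hlf and Il12rb2, and just outside it, at 100, were 8030423F21Rik, Cftr and D630003M21Rik.

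Input was not part of the choice. On the CPM scale the median window had 2.16 times as much H3K27me3 as input for serum, 2.14 times for 2i and 1.98 times for the knockout (all windows 0.691, 0.888 and 0.901). In serum 291 windows had at least 3 times the input, and 43 had no more H3K27me3 than input. Serum input passed 60 reads in 16 windows, led by Gm15319, with 336 CPM of input and 196.3 of H3K27me3, and by Snord116l1 and Snord116l2, which share a window with 221 CPM of input and 116.6 of H3K27me3. In these 3 windows H3K27me3 was below input.

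The 886 windows lay on 20 chromosomes, most on 11 (83), 2 (77) and 7 (71), counts not scaled to the gene windows of each chromosome. Of the 264 with any other gene window within 10000 bases, 67.05% had a neighbour with at least 50 H3K27me3 reads. The same share was 65.1% for bivalent windows and 6.25% for windows under 50 reads. Overlap of window and neighbour adds to it, as 19 neighbouring pairs overlapped.

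The 10 highest windows in serum were ranked on the count that chose them, so their levels are a description. Positions are in mm9. Foxl1, a forkhead factor of gut mesenchyme (chr8:123651085-123652084), was at 377 CPM for serum (exact Poisson 95% interval 336 to 421), 205 for 2i (168.1 to 248) and 178.4 for the knockout (145.6 to 216). Hoxa11as (chr6:52194742-52195741) was at 377 (serum), 176.3 (2i) and 237 (knockout), and Wnt1 (chr15:98619788-98620787) at 350 (serum), 133.7 (2i) and 183.6 (knockout). The intervals of Wnt1 were 310 to 393, 103.99 to 169.2 and 150.3 to 222. These intervals cover counting error only, and each culture had 1 library, so there is no replicate check for any difference between marks.

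Islr2, a neuronal membrane protein (chr9:58049593-58050592), was at 331 (serum), 137.5 (2i) and 148.95 (knockout) CPM, and Dbx1 (chr7:56891706-56892705) at 326 (serum), 166.6 (2i) and 185.3 (knockout). Pax6os1 (chr2:105509988-105510987) stood at 314 (serum), 145.3 (2i) and 122.97 (knockout), Nkx2-2 (chr2:147011639-147012638) at 310 (serum), 160.8 (2i) and 154.2 (knockout), and Duox2, a thyroid oxidase (chr2:122123402-122124401), at 308 (serum), 197.6 (2i) and 197.5 (knockout). Hoxb6 (chr11:96159985-96160984) stood at 304 (serum), 141.4 (2i) and 157.6 (knockout), and Mir196b (chr6:52179665-52180664) came next. For the spacing of divergent genes, 4439 of 7079 neighbouring opposite-strand pairs (62.7%) fitted windows reaching 500 bases to either side of a start, within 1 base. The files do not state the windows' place, and whether a window lies on a promoter, an exon or an intron was not analysed here.

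Classes were assigned by symbol pattern. Hox genes made up 18 of the 886 windows, of 39 Hox windows in the table (20 more were bivalent). Their median H3K27me3 level was 252 CPM for serum, the highest of any class with at least 3 windows. Hoxd12 was at 287 (serum), 65.9 (2i) and 150.7 (knockout) CPM, Hoxa3 at 279 (serum), 143.3 (2i) and 140.3 (knockout), and Hoxb8 at 276 (serum), 154.96 (2i) and 147.2 (knockout). The other homeobox genes counted 29 windows (16.8% of such windows in the table) with a median of 163.2 CPM, led after Pax6os1 and Nkx2-2 by Evx2. Transcription factors of the bHLH family counted 14 (27 bivalent) with a median of 127.6 CPM, led by Mesp2, Hes7 and Neurod2, factors of somites and neurons. The zinc finger group counted 11 windows of 479, led by Prdm13, Prdm8 and Zic4.

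Genes of the cell surface were as numerous. G protein coupled receptors counted 34 windows (96 bivalent, 279 in all; median 118.4 CPM), led by the somatostatin receptor Sstr1. Adhesion genes counted 36 (67 bivalent, 186 in all; median 73.6 CPM), led by Flrt2 and Cntnap1, and voltage-gated and other ion channels 29 (71 bivalent, 186 in all; median 95.7 CPM), led by the potassium channel Kcnk9. Signalling ligands counted 18 (92 bivalent, 258 in all), led by Wnt1, Shh and the neurotrophin Ntf3.

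Keratins and keratin-associated proteins counted 14 windows (13.6% of such windows in the table), against 4 bivalent windows. Their median was 66.9 CPM, or 54.5 H3K27me3 reads, close to the limit and not far below the 73.6 CPM of adhesion genes. Olfactory and vomeronasal receptors, the largest gene family of the table with 1475 windows, gave 9 (2 bivalent). Forkhead genes stood mostly on the other side, with 2 windows against 23 bivalent ones, of 45 in the table. Unnamed transcripts made up 15.7% (15.8% of all windows), and 464 windows (52.4%; 63.8% of all windows) had symbols outside every pattern.

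CpG content was read from the RefSeq promoters, which were matched for 638 of the 886 windows (72.01%). The median observed over expected ratio was 0.396, against 0.723 for bivalent windows, 0.188 for windows low in both marks and 0.589 for all windows. A ratio of at least 0.6 was found for 21.5% of promoters, against 69.3%, 5.73% and 49.2%. The median GC content was 55.5% against 65% for bivalent windows. As H3K4me3 follows CpG content and the choice used H3K4me3, the order of these groups is a description.

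The ratio also went with the H3K27me3 level. Its median was 0.369 for windows of 50 to 99 H3K27me3 reads, 0.482 from 100 to under 200 and 0.657 for 200 or more, where 61.9% reached 0.6 (17.02% and 30.5% in the lower ranges). The highest range had 21 promoters. Bivalent promoters varied less over the same ranges, with medians of 0.718, 0.725 and 0.748. The sequence TATAAA was found on either strand in 86 promoters (13.5%), against 7.53% of bivalent, 23.6% of low and 14.2% of all 27025 promoters of the table, a letter match that shows no bound factor. Of the promoters shown above, Krtap4-9, Dbx1 and Hoxa11as hold it, Hoxa11as on the opposite strand.

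**Figure D2:**
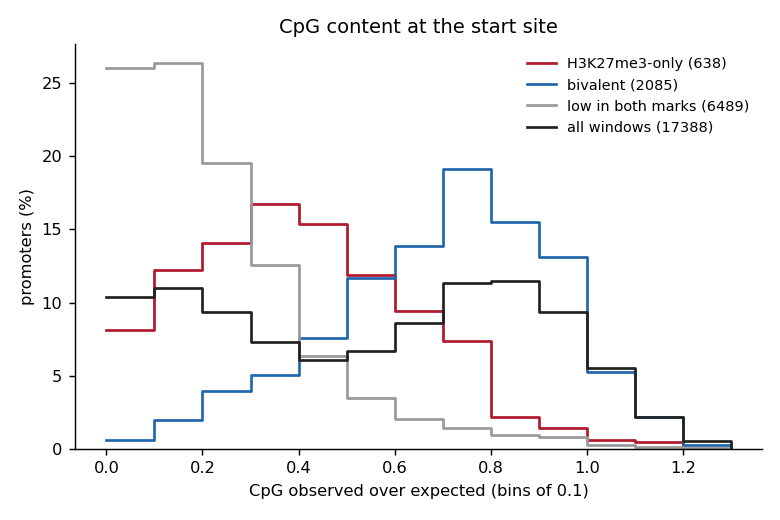
Share of promoters (vertical, percent of each group) by CpG observed over expected ratio (horizontal, in bins of 0.1) for H3K27me3-only windows, bivalent windows, windows low in both marks and all windows, with the number of promoters in brackets. The H3K27me3-only group peaks between the bivalent group and the group low in both marks, with medians of 0.396, 0.723 and 0.188.

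To compare marks between cultures, counts were brought to CPM and 0.5 was added before the log2 ratio. H3K27me3 ratios to serum use the serum counts that chose the windows, so a low ratio follows in part from the choice and nothing is read from it here. The median H3K27me3 ratio was -0.32 in 2i and -0.27 in the knockout, against 0.21 in each over all windows. It was at least 2-fold lower in 2i at 12.5% of the 886 windows (7.47% of all windows) and in the knockout at 78, 8.80% (5.29% of all windows). By serum level the medians in 2i were -0.18 (50 to 99 reads), -0.73 (100 to under 200) and -0.97 (200 or more), and in the knockout -0.15, -0.64 and -0.93. Bivalent windows of the same levels gave -0.20, -0.56 and -0.84 in 2i and -0.18, -0.50 and -0.77 for the knockout.

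The same choice was also made in each of the other cultures. With the same limits in CPM, 1932 windows were chosen in 2i, 621 of them shared with serum (32.1% of the 2i windows, 70.1% of the serum windows). Those 1932 had a median ratio of 2i to serum of 0.36, the opposite sign. In the knockout 1100 windows were chosen, 451 shared (41% and 50.9%), with a median ratio to serum of 0.40. Of the 886 windows, 655 (73.9%) stayed above the H3K27me3 limit in 2i and 681 (76.9%) in the knockout, against 82.9% and 85.6% of bivalent windows. Over all 23167 windows 4495 and 4266 passed that limit.

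By class, H3K27me3 ratios again rest on the serum counts that chose the windows. Median ratios for 2i and knockout were -1.07 and -0.98 for Hox genes, for other homeobox genes -0.83 and -0.87, for zinc finger genes -0.86 and -0.59, for bHLH genes -0.64 and -0.50, and for keratins -0.20 and -0.23. In 2i the lowest single ratios were those of Mir196a-1 (-2.21), of Mfsd2b, a lipid transporter homologue at 98.2, 21.3 and 57.2 CPM in serum, 2i and knockout (-2.18), of Hoxd12 (-2.12), of the adducin Add3 at 101.8, 23.2 and 64.1 (-2.11) and of the antisense RNA Dlx6as1 at 147.2, 36.8 and 64.1 (-1.99). In the knockout the lowest ratio was that of Tfap2b, a factor of neural crest, at 181.6 (serum), 106.5 (2i) and 55.4 (knockout) CPM (-1.70), and Zic4, at 218 (serum), 81.4 (2i) and 67.5 (knockout), had -1.69. Sycp3, of the synaptonemal complex of meiosis, was at 65, 141.4 and 46.8 CPM with a 2i ratio of 1.11, the highest after the shared, high-input window of Snord116l1 and Snord116l2 (1.17).

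H3K4me3 was also part of the choice. Its median ratio was 0.00 in 2i and 0.98 for the knockout. It was at least 2-fold higher at 86 windows in 2i (9.71%; 8.21% of all windows) and at 431 in the knockout (48.6%; 27.7% of all windows). Windows low in both marks had a median of 1.24 in the knockout, and the knockout library had the fewest H3K4me3 reads of the 3. Scaled to the input total instead of the mark's own total, the median was -0.95 for 2i and -0.37 for the knockout, whose direction turned. At the depth-scaled limit 48 of the 886 windows passed in 2i and 263 for the knockout, while in raw counts 18 and 9 reached 100 H3K4me3 reads.

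H3K27ac, a mark of active promoters and enhancers, and RNA polymerase II were not used in the choice. The median H3K27ac ratio was -0.51 in 2i and -0.48 in the knockout, against -0.15 and -0.21 over all windows. It was at least 2-fold lower at 198 windows in 2i (22.3%; 12.5% of all windows) and at 17.2% in the knockout (11.7% of all windows). Windows low in both marks had nearly the same medians, -0.44 and -0.41, and bivalent windows -0.11 and -0.23. RNA polymerase II was at least 2-fold higher at 188 windows in 2i (21.2%; 14.2% of all windows) and at 15.3% in the knockout (10.9% of all windows), with medians of 0.32 and 0.20 against 0.11 and 0.07. Scaled to the input total the medians were -0.70 and 0.23, so the direction in 2i turned. Windows low in both marks again lay close, at 0.36 and 0.27. Median H3K9me3 ratios were -0.11 and -0.09, and input ratios -0.20 and -0.07.

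**Figure D3:**
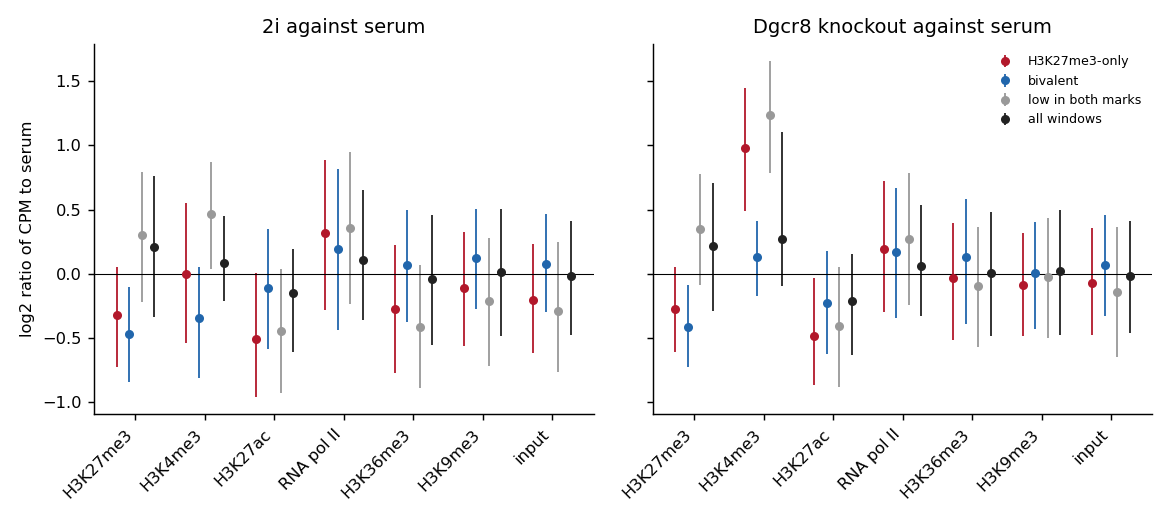
Median log2 ratio to serum (vertical) of each mark for the 2i and knockout cultures, in H3K27me3-only windows, bivalent windows, windows low in both marks and all windows, with bars from the first to the third quartile of windows. H3K27ac and RNA polymerase II of the H3K27me3-only windows lie near those of windows low in both marks.

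A few windows went the other way for H3K27ac. Osm, the cytokine oncostatin M of the LIF family, had 17.5 CPM of H3K27ac in serum and 79.8 in 2i (log2 ratio 2.16), and its H3K4me3 was at 1.31 (serum), 16.3 (2i) and 28.5 (knockout) CPM. Tuba3a, a testis alpha-tubulin, had 7.62 and 30.8 CPM of H3K27ac (1.95) and 1.89 and 32 of H3K4me3. Gpat2, an acyltransferase of male germ cells, had 6.88 and 25.6 (1.82), and 0.979 and 12.9. S100a1 and S100a13, calcium-binding proteins whose windows overlap, had 13.3 and 12 CPM in serum and 49.6 and 44.5 in 2i (1.86 and 1.84). These 5 were the highest H3K27ac ratios in 2i. In the knockout the highest were 2900092D14Rik (1.64) and the protocadherin Pcdh15 (1.49).

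H3K9me3, the mark of constitutive silencing, was at least 2.5 times input at 33 windows when the 3 cultures were pooled (3.72%; bivalent 0.825%, all windows 3.25%), a limit chosen after the values were seen. The highest included genes of germ cells: Mael, of the piRNA pathway (4.43 times input), Tex12, of the synaptonemal complex (4.06), Taf7l, a testis transcription factor subunit (4.05), Dazl, an RNA-binding protein of germ cells (3.97), Spata22 (3.34), Figla (2.78) and Ctcfl (2.62). The imprinted gene Gnas was at 4.15.

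RNA from the genes of these windows was low in every mESC library. Single-cell levels are plate means of TPM. Of the 886 names, 668 were in the mESC cell table, and TPM 1 or more was reached by 61 (9.13%) and 57 (8.53%) on the serum plates, by 16.2% for 2i and by 20.96% for the knockout. Over all windows the shares were 47.1%, 43.4%, 59.6% and 63.6%, for bivalent windows 15.8%, 13.4%, 29.05% and 37.3%, and for windows low in both marks 14.7%, 12.9%, 23.99% and 28.97%. The H3K27me3-only group was thus below each of the others on every plate. The table lists a gene at 0 in serum unless at least 10 cells of the pooled serum plates were above 0 (5 in 2i and in the knockout), so 0 means listed at 0, as were 549 of the 668 in serum. Fewer cells with a transcript and less RNA per cell cannot be told apart in a plate mean or a bulk library.

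Bulk RNA gave the same order. Of 579 names in that table, 39 (6.74%) and 31 (5.35%) were at TPM 1 or more in serum, 48 (8.29%) for 2i, and 87 (15.03%) and 85 (14.7%) in the knockout libraries. All windows gave 42.3%, 38.1%, 45.3%, 55.8% and 54.8%. The median cell had 43 and 45 of these genes at TPM 1 or more on the serum plates, 69 on the 2i plate and 65.5 on the knockout plate. Genes of any kind at TPM 1 or more per cell also differed, with medians of 7779 and 7646, 9972.5 and 9315.5 on these plates. The part of this in the higher counts was not tested.

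**Figure D4:**
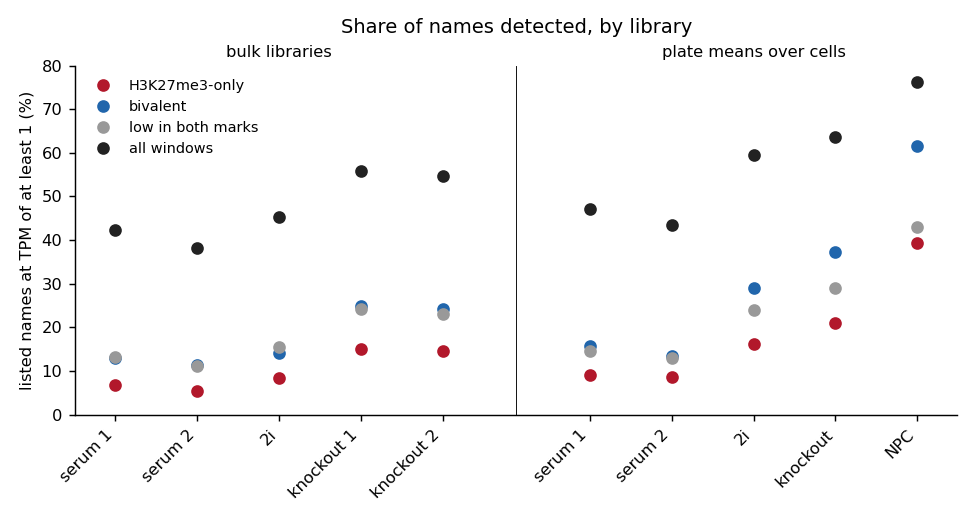
Share of listed names at TPM 1 or more (vertical, percent) in each bulk library (left) and as a mean over the cells of each plate (right) for H3K27me3-only windows, bivalent windows, windows low in both marks and all windows. Among listed names the H3K27me3-only group is lowest in all 5 bulk libraries and on all 5 plates, from 5.35% in the lower bulk serum library to 39.3% in NPC. The NPC table lists few names at 0, so its shares are not on the same base as those of the mESC plates.

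Among classes, 12 of 14 listed Hox genes and 16 of 17 other homeobox genes were at 0 on all 4 mESC plates, as were 7 of 7 keratins, 10 of 12 bHLH factors and 23 of 26 ion channels. These classes are small. Of all 668 listed genes, 82.2% were at 0 on each serum plate, 75.6% on the 2i plate and 70.7% on the knockout plate. Of 31 listed adhesion genes, 4 were at TPM 1 or more on each serum plate and 5 each in 2i and the knockout, and of 76 unnamed transcripts 9 on each serum plate, 17 for 2i and 12 for the knockout. Of 12 listed signalling ligands 1 reached it on each serum plate and 3 each in 2i and the knockout. The strongest windows had fewest: of 24 listed genes with 200 or more H3K27me3 reads, 1 was at TPM 1 or more on each serum plate, 2 in 2i and 1 for the knockout.

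Differences in RNA were fitted with limma on log2(TPM + 1) across all genes with a mean of TPM 1 or more, and called at a Benjamini-Hochberg adjusted p under 0.05. Only 67 of the 579 bulk names and 15.6% of the 668 plate names passed that filter, so the counts describe the few detectable genes. A gene that passed through its high group had to differ. This holds for Gpat2, Sohlh2, Sycp3, Mael, Lefty2, Cpn1, Dkk3 and Myl9 in bulk, whose changes are given below without p-values. Dazl and S100a1 were under TPM 1 in both serum libraries and passed through their 2i and knockout libraries. Their changes are also given without p-values. In bulk, 19 were called higher in 2i (20.4% of all genes tested) and 8 lower (11.7% of all). In the knockout 44 were called higher (62.5% of all) and 9 lower (11.7% of all). Leaving out serum replicate 1 or serum replicate 2 left 11 higher in 2i, and without serum replicate 1 there were 5 lower.

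The plates gave 46 higher in 2i (39% of all) and 6 lower (1.82% of all), and in the knockout 57 higher (50% of all) and 8 lower (2.97% of all). The plate fit had 1 residual degree of freedom, and genes at 0 on both serum plates had no spread there. Called higher in both bulk and plates were 15 genes in 2i (78.9% of the bulk calls, 32.6% of the plate calls) and 37 in the knockout (84.1% and 64.9%), and lower in both were 2 and 3.

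The median gene was itself higher, by 0.20 in bulk 2i, 0.92 in the bulk knockout, 1.24 on the 2i plate and 1.38 on the knockout plate on the log2 scale. Relative to the median gene the higher and lower calls were 11 and 13 in bulk 2i (15.5% and 17.5% of all genes) and 28 and 20 in the bulk knockout (28.3% and 30.1% of all). On that scale they were 28 and 42 on the 2i plate (15.5% and 18.5% of all) and 39 and 40 on the knockout plate (22.3% and 22.7% of all). With quantile normalisation they were 13 and 14 (16.2% and 17% of all) and 23 and 20 (29.02% and 28.8%) in bulk. On the plates they were then 17 and 15 (6.33% and 3.54%) and 33 and 18 (12.97% and 7.91%). Each bulk call named below with its relative value kept its direction and its call on that scale.

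Several called genes known from germ cells are described first, a grouping made after the values were seen and with no list or test behind it. Dazl stood at 0.933 and 0.438 TPM in serum bulk, 19.9 for 2i, and 5.07 and 3.19 in the knockout libraries. Plate means were 1.38 and 0.840 for serum, 34.9 for 2i and 5.49 for the knockout. It was at TPM 1 or more in 20% and 18.3% of serum cells, 88.3% of 2i cells and 40.5% of knockout cells. The 2i values lay above all others in both kinds of library. In bulk it rose by 3.65 in 2i (limma, SE 0.35, 3.45 relative to the median gene) and by 1.60 in the knockout (SE 0.29). In its window H3K27me3 was at 81 (serum), 116.2 (2i) and 97 (knockout) CPM, H3K4me3 at 2.42 (serum), 12.2 (2i) and 7.39 (knockout) and H3K27ac at 31.2 (serum), 51.1 (2i) and 34.5 (knockout), so H3K27me3 was not lowest where the RNA was highest.

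Hormad1, of the meiotic chromosome axis, was at 1.70 and 0.615 TPM in serum bulk, 7.18 in 2i and 14.2 and 12.9 for the knockout. All 3 other libraries lay above serum, and it rose by 1.97 in 2i (limma, SE 0.36, adjusted p = 0.00122; 1.77 relative) and by 2.80 in the knockout (SE 0.29, adjusted p = 4.09e-06; 1.88 relative). The plates gave 2.43 and 2.54 in serum, 37.6 in 2i and 39.8 for the knockout. H3K4me3 in its window was at 3.0 (serum), 15.3 (2i) and 22 (knockout) CPM.

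Sohlh2, a bHLH factor of spermatogonia and oocytes, was at 0.233 and 0.148 TPM in serum bulk, 2.53 in 2i and 20.2 and 21.8 for the knockout. It was listed at 0 on both serum plates, at 9.23 in 2i and at 20.3 in the knockout, the same order as in bulk. It rose by 4.21 in the bulk knockout (limma, SE 0.25, 3.29 relative), the largest rise of the 67, and by 1.57 in 2i (SE 0.31). H3K4me3 was at 3.46 (serum), 16 (2i) and 24.8 (knockout) CPM.

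Sycp3 was at 0.893 and 0.562 TPM in serum bulk, 0.761 in 2i and 6.72 and 7.57 for the knockout, and 2.55, 3.72, 5.70 and 32.3 on the plates. It rose in the bulk knockout by 2.24 (limma, SE 0.26, 1.32 relative). Mael was at 0.510 and 0.579 TPM in serum, 0.530 in 2i and 5.89 and 4.6 for the knockout (2.01, limma, SE 0.25). For both genes only the knockout libraries lay apart, with 2i inside the serum range or between it and the knockout on the plates. Tex11, of meiotic recombination, rose in 2i by 1.24 (adjusted p = 0.0111) and in the knockout by 1.92 (limma, adjusted p = 3.46e-05).

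Gpat2 was at 0.0415 and 0.131 TPM in serum bulk, 5.53 in 2i and 0.261 and 1.11 for the knockout. It rose in 2i by 2.59 (limma, SE 0.33, 2.39 relative) and passed the filter only through the 2i library. On the plates it was listed at 0 in serum, at 9.10 in 2i and at 0.304 in the knockout. The transcript 1700013H16Rik was at 0 in both serum libraries, 15.8 in 2i and 0 and 0.214 for the knockout, and on the plates at 17 for 2i and 0 elsewhere. The testis tubulin gene Tuba3b was at 9.87 and 8.61, 162.5, and 31.5 and 18.5 TPM (4.0 in 2i, limma, SE 0.30, adjusted p = 1.16e-06). It is a near copy of Tuba3a, so reads may be split between them and both levels are uncertain.

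Lefty2, an inhibitor and target of Nodal, was at 0.133 and 0.353 TPM in serum bulk, 0.662 in 2i and 16.8 and 18.4 for the knockout. On the plates it was at 0.512 and 0.674, 5.93, and 44.9. It rose in the bulk knockout by 3.91 (limma, SE 0.26, 2.99 relative) and was not called in bulk 2i (0.42). H3K4me3 in its window was at 4.51 (serum), 1.24 (2i) and 39.2 (knockout) CPM and RNA polymerase II at 38.8 (serum), 12.2 (2i) and 107.2 (knockout), so H3K4me3, RNA polymerase II and RNA were each highest in the knockout.

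Cpn1, a carboxypeptidase subunit of plasma, was at 0.124 and 0.395 TPM in serum bulk, 1.35 in 2i and 21.9 and 16.7 for the knockout (4.01, limma, SE 0.27, 3.08 relative). Dkk3, a secreted protein of the Dickkopf family, was at 0.0328 and 0.102, 1.15, and 6.15 and 5.67 (2.69, limma, SE 0.24, 1.77 relative). S100a1 was high in both, at 0.209 and 0 TPM in serum bulk, 7.90 in 2i and 17.1 and 15.2 for the knockout. Its rises were 3.02 in 2i (limma, SE 0.32, 2.82 relative) and 3.96 in the knockout (SE 0.26, 3.04 relative). The overlapping gene S100a13 moved with it in 2i (2.10, adjusted p = 0.00145), and reads of the neighbours may not be told apart where transcripts overlap.

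Osm and Brdt, a bromodomain protein of testis, were listed at 0 on both serum plates, at 3.68 and 5.87 TPM in 2i and at 3.66 and 2.59 in the knockout. Sp5, a Wnt target factor, had less H3K27me3 and more H3K27ac in 2i than in serum. H3K27me3 was at 256 (serum), 71.7 (2i) and 136.8 (knockout) CPM and H3K27ac at 6.88 (serum), 25.4 (2i) and 9.58 (knockout), while its RNA was listed at 0 on the mESC plates.

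The genes with the most RNA in serum went down in both other cultures. H2-T9, a class I MHC gene, was at 2504 and 2877 TPM in serum bulk, 756.2 in 2i and 351.2 and 283.6 for the knockout. It fell by 1.83 in 2i (limma, SE 0.15, adjusted p = 2.93e-06) and by 3.08 in the knockout (SE 0.13, adjusted p = 2.56e-09). The plates gave 16308 and 17050 in serum, 2303 in 2i and 1633 for the knockout, with no overlap. Class I genes are near copies of each other, so its level is uncertain, and its window had 57 H3K27me3 and 46 H3K4me3 reads in serum. Pbld1, an isomerase-like gene, fell by 2.20 and 3.29 in bulk (limma, adjusted p = 8.59e-06 and 1.67e-08), from 264.2 and 304.7 TPM to 61.1 in 2i and to 31 and 25.3 in the knockout. On the plates it did not pass (adjusted p = 0.0683 and 0.0520).

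Myl9, a myosin light chain of smooth muscle, was at 13.2 and 10.8 TPM in serum bulk, 0.199 in 2i and 0.467 and 1.85 for the knockout. It fell by 3.43 in 2i (limma, SE 0.39, -3.63 relative) and by 2.66 in the knockout (SE 0.32, -3.58 relative). The plates gave 30.4 and 15.9 in serum, 0.533 in 2i and 0.722 for the knockout, and 78.6 in NPC. H3K27ac in its window was at 21.9 (serum), 9.37 (2i) and 5.99 (knockout) CPM. Slfn5 and the skeletal actin gene Acta1 fell in the bulk knockout by 1.59 and 1.93 (limma, adjusted p = 0.000416 and 0.000228), and the brain RNA-editing homologue Adarb2 by 2.86 (adjusted p = 1.48e-06). Pdlim2 fell in 2i by 2.43 (limma, adjusted p = 0.000141), as did Pmp22, a myelin protein, by 1.79 (adjusted p = 0.00190).

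**Figure D5:**
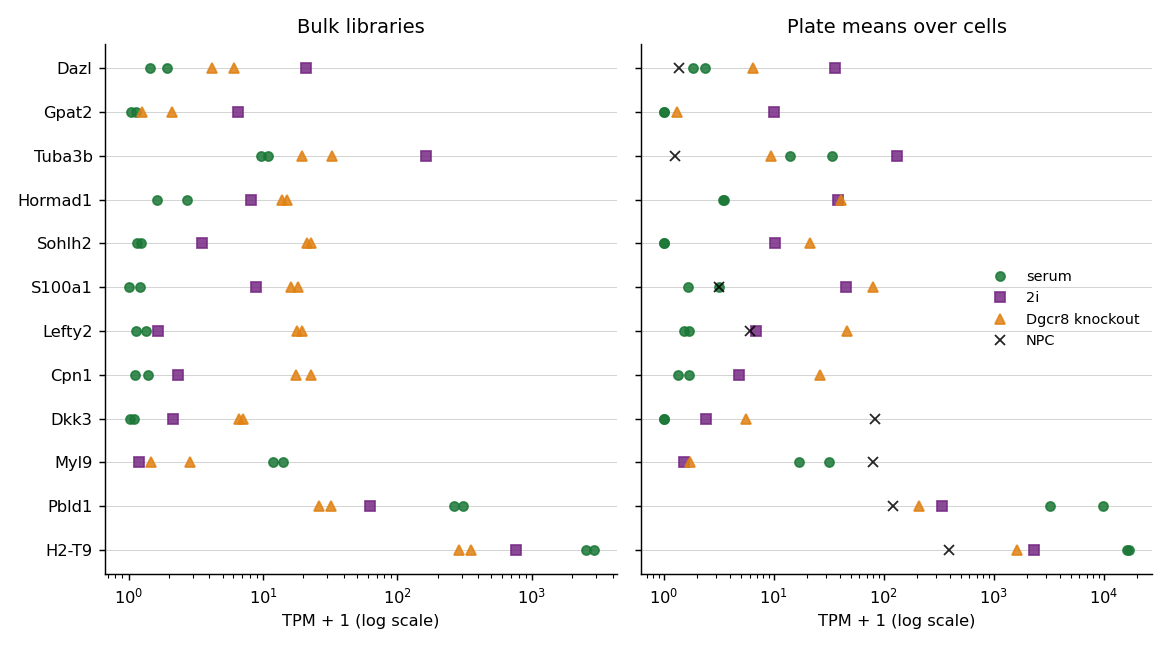
RNA level (horizontal, TPM + 1, log scale) of 12 named genes of H3K27me3-only windows in the 5 bulk libraries (left) and as plate means over cells (right), with 1 symbol per library or plate and its shape and colour for the culture. In bulk, Dazl and Gpat2 are highest in 2i, Sohlh2, Lefty2 and Cpn1 in both knockout libraries, and Myl9 and H2-T9 in both serum libraries, and genes with no cross are not listed in NPC.

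In NPC, 402 of the 886 names were in the table and 39.3% of them were at TPM 1 or more, against 61.7% for bivalent windows, 42.99% for windows low in both marks and 76.3% for all windows. That table was normalised apart from the mESC table and holds 1 plate, so levels are set side by side with no test. Of 260 genes under TPM 1 on all 4 mESC plates and listed in both tables, 73 (28.1%) were at TPM 1 or more in NPC and 20 (7.69%) at 10 or more. Bivalent genes under TPM 1 in mESCs reached these levels in 49.2% and 14.9%, and genes low in both marks in 25.2% and 5.23%. Over all windows under TPM 1 in mESCs the shares were 36.6% and 8.63%.

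Ptn, a growth factor of the developing brain, was at most 0.479 TPM on the mESC plates and at 170 in NPC. There 70.4% of cells were at TPM 1 or more, the measure for each share of cells here. Six3, a homeobox factor of the forebrain and eye with 180.4 CPM of H3K27me3 in serum, was listed at 0 on the mESC plates and at 54.9 in NPC, in 100% of cells. Prrx1, a homeobox factor of mesenchyme with 213 CPM, was at 84.2 in 98.1% of cells. Flrt2, a guidance and adhesion protein with 213 CPM, was at 47.1 in 96.3% of cells. For these genes most NPCs were at TPM 1 or more.

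Tnc, a matrix glycoprotein of glia and mesenchyme, was at 75.4 TPM in NPC, Plat, the tissue plasminogen activator, at 89.1, and Zeb2, a zinc finger homeobox factor of neural crest, at 49.4. Cntnap2, an adhesion protein of axons, was at 47.1 and Ntf3 at 27.6. Others were found in fewer cells: Fibin averaged 14.01 TPM with 7.41% of cells at TPM 1 or more, and Tmem215 25.2 with 18.5%. Among classes, 16 of 28 adhesion genes listed in NPC reached TPM 1, against 2 of 13 homeobox genes outside the Hox clusters, 0 of 4 Hox genes and 0 of 4 bHLH factors.

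The highest NPC level was that of Cryaa, a lens crystallin, at 7078 TPM in 100% of cells, against 0.0477 and 7.01 on the serum plates and 0 in 2i and the knockout. Gnas was at 539 TPM, against 11.8 and 7.78 in serum, 38.9 in 2i and 65.4 for the knockout. The protocadherin names Pcdha2, Pcdha9, Pcdhac1 and Pcdhgc4 carried identical RNA values in every table (127.2 TPM in NPC), so their 4 windows share 1 RNA measurement.

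The enzymes that write and erase these marks were read from lists taken from general knowledge, none of whose changes were used to choose windows. Of 9 tested subunits of Polycomb repressive complex 2, bulk RNA rose for 2 and fell for 2 in 2i and rose for 7 and fell for 1 in the knockout (limma). Ezh2, its methyltransferase, was at 8.19 and 7.43 TPM in serum, 13.7 in 2i and 26.3 and 22 for the knockout. It rose by 1.51 in the bulk knockout (limma, adjusted p = 6.21e-05) and was not called in bulk 2i (0.74). Its plate means were 22.7 and 22.7 in serum, 87.9 in 2i and 75.6 for the knockout. There it rose by 1.90 and 1.69, both called, where the median gene rose by 1.24 and 1.38. Eed, the subunit that binds the mark, fell in the knockout by 1.23 (limma, adjusted p = 1.67e-05) and in 2i by 0.68 (adjusted p = 0.0146). On the plates Eed was higher than both serum plates in each culture, by 0.67 in 2i and 0.35 for the knockout, and did not pass (adjusted p = 0.0747 and 0.189). Mtf2, an accessory subunit, rose in 2i by 1.37 (adjusted p = 0.000906).

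Of 12 tested subunits and partners of Polycomb repressive complex 1, bulk RNA rose for 1 and fell for 3 in 2i and rose for 6 in the knockout. On the plates 7 of 18 rose and 1 fell in 2i and 9 rose in the knockout. Over all plate genes, 39% were called higher and 1.82% lower in 2i, and 50% higher in the knockout. In bulk, of 4 H3K27 demethylases and acetyltransferases, 1 rose in 2i and 2 for the knockout. Of 9 H3K4 methyltransferases and partners, 4 rose and 1 fell in 2i and 8 rose and 1 fell in the knockout. The names Mll2 and Wbp7 carried identical bulk values, so a single measurement counts under both names among the rises of each culture. Of 5 H3K4 demethylases 1 rose in 2i and 5 for the knockout. Over all bulk genes, 20.4% were called higher and 11.7% lower in 2i, and 62.5% higher and 11.7% lower in the knockout. The bulk counts of these lists are to be read beside those shares. In bulk, DNA methylation enzymes counted 1 rise and 4 falls of 7 in 2i and 3 rises and 2 falls in the knockout. On the plates they counted 4 rises and 1 fall of 8 in 2i and also 4 and 1 in the knockout, beside the plate shares above. The largest was Dnmt3l, a cofactor of the DNA methyltransferases, at 197 and 159.4 TPM in serum, 0.832 in 2i and 19.7 and 20.7 for the knockout.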

How the data were processed

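Members and gene lists were chosen with earlier results of these data known. ChIP-seq values are raw read counts per 1000-base gene window, as the authors deposited them. RNA values were deposited as natural log (ln) of TPM + 1 or as TPM, per the file headers, and were brought back to TPM, so their depth is unknown. Bowtie and RSEM appear among the tools in the submitters' processing notes, with mm9 as the build. No source used here gives the counter, filters or read totals.

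Counts were scaled to CPM over the total of window reads and compared as log2 ratios with 0.5 added, with no test (1 library each) and called past 2-fold. A plate, not a cell, was the sample. limma 3.58.1 (R 4.3.3, trend, Benjamini-Hochberg 0.05) was fitted on log2(TPM + 1) across 10078 bulk and 12394 plate genes of mean TPM 1 or more, over all 5 bulk libraries or the 4 mESC plate means, and tested on simulated data. The lone 2i library, 2i plate and knockout plate are assumed to vary like the others. Names turned into dates or bare numbers (5 of 21001 bulk, 56 of 22443 mESC, 29 of 18873 NPC) were left out. RefSeq accessions matched 871 windows. 2 window names are dates, and those windows have no RNA value.

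Genes named were, by rule, the 10 windows highest in H3K27me3, 3 on each side of each limit, up to 8 called per RNA comparison and direction with the largest change, the 10 highest in NPC and in mESC plates, the 5 highest and lowest H3K27me3 ratios, the 5 highest H3K27ac ratios and up to 3 per class. Mael, Tex11, Osm, Brdt, Sp5, S100a13 in 2i, the H3K9me3 genes and the NPC genes under the 10 highest were named after their values were seen. Alternatives covered limits, scaling, filters, pseudocounts of 0.1 and 5, and libraries left out.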

Additional observations from a re-analysis of the deposited data

How the results depend on the processing

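The number of windows was 230 with at least 100 H3K27me3 reads, 2926 with at least 30, 551 with H3K4me3 under 50, 1440 under 200, and 291 with 3 times the input. Scaled to the median window, the median H3K27me3 ratio was -0.53 in 2i and -0.49 in the knockout, and scaled to the input total -1.27 and -0.84. With the limits above, in that order, it was -0.76, -0.077, -0.24, -0.39 and -0.69 in 2i and -0.72, -0.037, -0.23, -0.33 and -0.64 in the knockout. H3K27ac moved to -0.36 in 2i and -0.28 in the knockout with the median window and to -0.54 in the knockout with the input total. H3K4me3 moved to -0.086 and 0.71 with the median window, and with the input total to -0.95 in 2i and to -0.37 in the knockout, where it reversed. RNA polymerase II moved to 0.21 and 0.13 with the median window, and with the input total it reversed in 2i (-0.70) and was 0.23 in the knockout. The input total sets the scale of each of these, and which scale is right was not tested.

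Detected shares on serum plates 1 and 2, 2i, knockout and NPC were 13.6%, 11.7%, 21.6%, 26.2% and 48.3% at TPM 0.5, and 3.29%, 3.29%, 7.04%, 7.63% and 19.7% at TPM 5. With at least 100 H3K27me3 reads they were 6.10%, 6.10%, 10.98% and 14.6% on the mESC plates, and with 3 times the input 6.16%, 5.69%, 12.3% and 13.7%. The NPC table lists few names at 0, so the NPC shares are not on the same base as the mESC shares.

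Calls in bulk 2i were 7 higher with a mean of TPM 5, 10 higher and 5 lower with no filter, and 14 lower with quantile normalisation. In the bulk knockout they were 10 higher with TPM 5, 84 higher and 14 lower with no filter, and 23 higher and 20 lower with quantile normalisation. Relative to the median gene they were 11 and 13, and 28 and 20. Plate calls are given as a share of the 668 listed genes. In 2i, 6.89% were called higher and 0.898% lower, and these shares were 3.44% and 1.65% with TPM 5, 14.2% higher with no filter, 2.54% and 2.25% with quantile normalisation, 4.19% and 6.29% relative to the median gene, and 1.497% lower from the mean over cells of log2 values. In the knockout, 8.53% were higher and 1.20% lower, and these were 3.44% and 2.40% with TPM 5, 20.06% higher with no filter (of 232 tested), 4.94% and 2.69% with quantile normalisation, 5.99% lower relative to the median gene, and 2.25% lower from the mean of log2 values. Leaving out 1 bulk library gave 11 to 14 higher and 5 to 7 lower in 2i, and 41 to 45 higher and 8 to 10 lower in the knockout. Without 1 plate that fit has no residual degrees of freedom, so no plate was left out.

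Of the values for named genes, 489 kept their call and direction and 38 lost the call, with none reversed. The calls lost in bulk were those of S100a13, Hormad1, Pmp22, Crabp2, Adarb2 and Tuba3a in 2i and of Acta1 and Slfn5 in the knockout, most of them with no filter on low genes. Serum and knockout bulk libraries share replicate numbers, whose deviations did not go together (r = -0.03). With the replicate block, 45 were higher and 9 lower in the knockout.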
